A study of Homo sapiens with 4 samples.

Results

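The genes described here are the abundant nuclear-encoded genes of U2OS cells in which an LC3B pull-down was set against an IgG pull-down. They were chosen by their level before any pull-down: at least 500 reads in each of the 2 input samples, with the genes of the mitochondrial chromosome (MT) left out. The rule kept 3592 of the 60676 genes in the count table, of which 3517 were protein-coding, 54 were long non-coding RNAs (lncRNAs) and 21 were pseudogenes. These genes held between 79.5% and 81.7% of the non-mitochondrial reads in each of the 4 samples. SNX10 and C12orf65 lay just inside the limit, with 500 reads in the lower of their inputs, and AC008894.2 and SRA1 lay just outside it with 499.

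U2OS is an established human osteosarcoma cell line, and it was grown without any treatment that the labels name. The 4 groups were the RNA pulled down from nuclear lysate, with no crosslinking step, by an antibody against LC3B, the RNA pulled down by non-specific IgG, and the input of each, with 1 sample in every group. The libraries came from polyadenylated RNA with a kit for very small amounts. With n = 1 per group the spread between replicates is unknown, so no test across samples was run. The labels name no shared genotype change, clone or pool.

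LC3B is a small ubiquitin-like protein of the ATG8 family. Joined to lipid, it sits on autophagosome membranes and holds the receptors that bring cargo there, while its unjoined form is found in the nucleus as well as the cytoplasm. LC3 has also been described as a protein that binds RNA, with the mRNA of fibronectin (FN1) as the classic case. FN1 had 330 and 367 reads in the inputs and therefore was not among the abundant genes. Non-specific IgG stands for the RNA that comes down with beads and antibody alone.

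Without mitochondrial genes the inputs held 8404123 (IgG) and 8542486 (LC3B) reads and the pull-downs 9824400 (IgG) and 10375786 (LC3B). Mitochondrial genes took 22.8% and 20.8% of all reads in the inputs for IgG and LC3B, and 1.76% and 0.774% in the pull-downs. The inputs were thus not free of RNA from outside the nucleus, and how far nuclear RNA was enriched in them was not tested. The inputs mostly fitted the labelled line: 12 of 14 mesenchymal and bone-lineage markers were at 10 CPM (reads scaled to a common total of non-mitochondrial reads) or more in both inputs. The other 2, COL1A2 and NT5E, were under 1 CPM. Such markers do not tell U2OS from other mesenchymal cells. Of 21 markers of other cell types, 15 were under 1 CPM in both inputs, 9 of these at 0 reads, and the highest, EPCAM, reached 18.2 CPM. The pull-downs were sampled unevenly: 14440 genes of the whole table had a read with IgG, against 23915 with LC3B, 22947 in the IgG input and 23082 in that for LC3B.

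Most abundant genes held a like share of the reads in both pull-downs. CPM compare shares within each sample, and how much RNA each antibody brought down is not known from these data. A gene was called higher with LC3B when the whole 95% exact binomial interval of its CPM fold was 2 or more, and lower when the whole interval was 0.5 or less. These intervals cover only the counting error of independent reads. Amplified reads without molecular identifiers are not independent molecules, so the intervals are likely too narrow. By this rule 400 of the 3592 genes (11.1%) were higher with LC3B and 246 (6.85%) were lower, while 2946 were not called. A wider set held the 15431 expressed non-mitochondrial genes, whose levels averaged 1 CPM or more when both inputs and both pull-downs were counted. In it the same rule called 33.8% higher and 9.45% lower. A gene could enter this set by its level in a pull-down, so these shares are not a neutral baseline for the abundant genes. Between the 2 inputs the rule called 0% of the abundant genes higher and 0% lower.

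**Figure D1:**
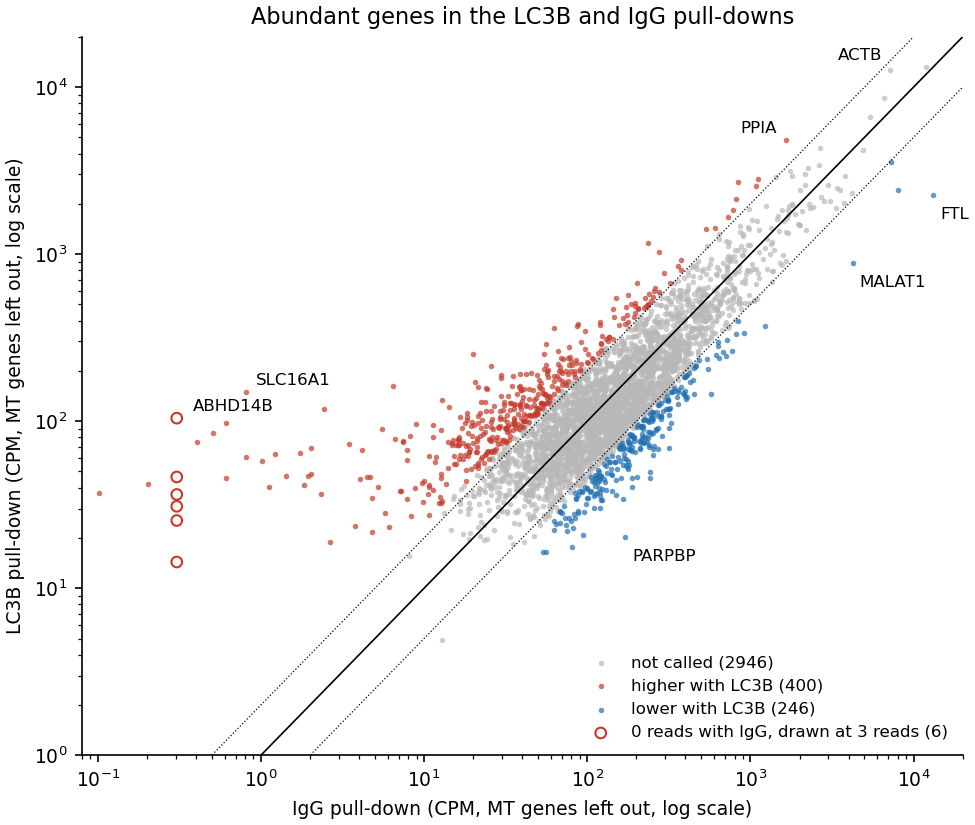
Each point is 1 of the 3592 abundant genes, with its level in the IgG pull-down on the x axis and in the LC3B pull-down on the y axis, both in CPM on log scales. The solid line marks equal levels and the dotted lines 2-fold differences; most genes lie between them, and a tail of red points runs left to 6 genes with 0 reads in the IgG pull-down.

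The log2 ratio of LC3B to IgG, with 0.5 CPM added to both, had a median of -0.03 over the abundant genes and a standard deviation (SD) of 0.98. The middle 50% of genes ran from -0.54 to 0.56, and 2789 genes (77.6%) lay within a 2-fold difference. The only pair of samples made alike was the inputs, and there the SD was 0.11 and all 3592 genes lay within 2-fold. The genes were chosen by their reads in both inputs, which leaves out genes low in 1 of them, so this input spread is a description. The tails were unequal. The median fold of the genes called higher was 3.19, and 93 had a lower bound of 4 or more. The median fold of the genes called lower was 0.381, and 8 had an upper bound of 0.25 or less. At a bound of 10, the counts were 30 genes higher and 0 lower.

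The spread narrowed with abundance but stayed wide against that of the inputs. For the 1633 genes with a mean of 500 to 1000 input reads the SD was 1.14, against 0.13 between the inputs. For the 187 genes at 5000 reads or more it was 0.72, against 0.09. The share called higher went from 15.3% in the first group to 6.42% in the second, and the share called lower from 6.67% to 4.81%.

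**Figure D2:**
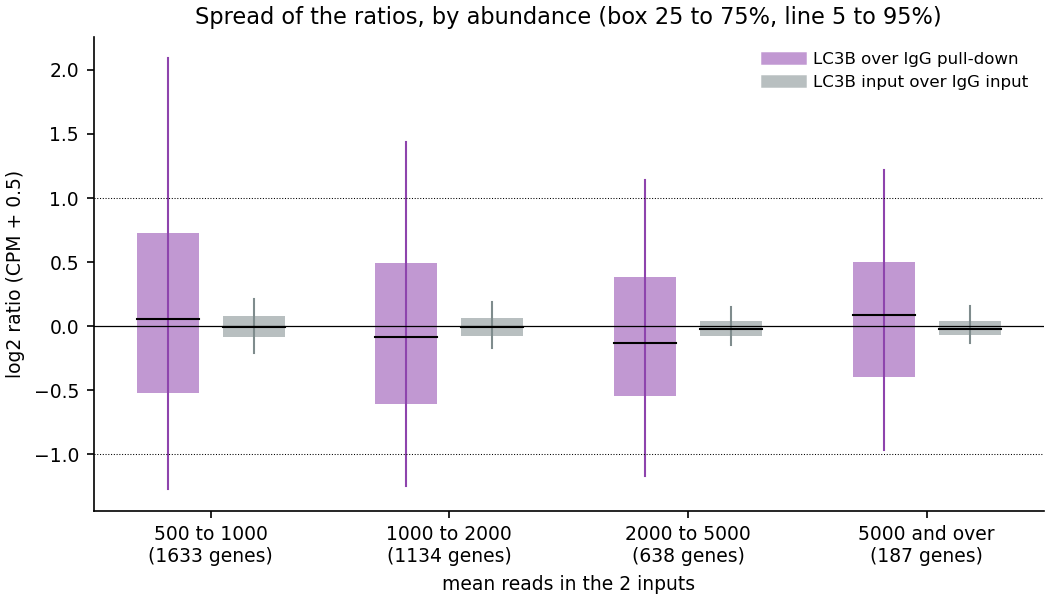
Log2 ratios of the LC3B over the IgG pull-down (purple) and of the LC3B over the IgG input (grey) are shown for genes in 4 ranges of mean input reads. Boxes span the middle 50% of genes, lines the 5th to 95th percentile and black bars the median; in every range the purple boxes are several times as tall as the grey ones, with SDs of 0.72 to 1.14.

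A limit of 500 input reads did not keep every gene well sampled in the IgG pull-down. There, 6 abundant genes had 0 reads, 15 had at most 10 and 55 had at most 100. In the LC3B pull-down the lowest gene had 51 reads, and 1 gene had at most 100. Of the 400 genes called higher, 54 had at most 100 IgG reads and 346 had more.

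The inputs, which the call did not use, show where each pull-down lay. Among the 400 genes called higher, the IgG level was below both inputs in 395 and the LC3B level was above both in 211 and below both in 164. The median ratio to the mean input was 0.318 for IgG and 1.07 for LC3B in these genes. Among the 246 called lower, the IgG level was above both inputs in 180 and the LC3B level was below both in 218, with median ratios of 1.34 and 0.480. These genes were chosen on the pull-downs themselves, so the counts are a description. Over all abundant genes the log2 ratio to the own input had an SD of 1.02 for IgG and 0.69 for LC3B.

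The genes with the largest differences were nearly missing with IgG. Most of them had fewer input reads than the median abundant gene, which had 1066 in the IgG input and 1081 in that for LC3B. ABHD14B, an alpha/beta hydrolase, had 768 and 689 reads in the inputs for IgG and LC3B, 0 after pull-down with IgG and 1082 after pull-down with LC3B, at least 342-fold higher with LC3B. This and the following bounds were computed against 3 reads in the IgG pull-down, or 0.305 CPM. The exact interval at 0 reads, which served for the calls and the order of the genes, begins lower, at 277 for ABHD14B, 123 for LRP6 and 96.6 for GINS1. LRP6, a co-receptor for Wnt ligands, had 502 and 602 input reads, 0 with IgG and 481 with LC3B, at least 152-fold higher. GINS1, a subunit of the GINS complex that activates the replicative helicase, had 536 and 567 input reads, 0 with IgG and 378 with LC3B, at least 119-fold higher. Each of these LC3B levels lay within 2-fold of the inputs, so the IgG pull-down was the sample that stood apart.

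PHF3, a PHD-finger protein that binds RNA polymerase II, was at least 101-fold higher with LC3B. The same bound was 83.3-fold for KPNA3, an importin alpha, and 47.0-fold for AIDA, an axin-binding protein. With LC3B these 3 genes also lay under their inputs: PHF3 at 30.9 CPM against 68.3 and 63.2, KPNA3 at 25.4 against 62.8 and 64.1, and AIDA at 14.4 against 61.6 and 59.7. SLC16A1, the monocarboxylate transporter that carries lactate, stood at 119.0 and 139.3 CPM in the inputs, 0.814 with IgG (8 reads) and 150.3 with LC3B, a fold of 185 (interval 93.5 to 428). ARAF, a RAF-family kinase, had 6 IgG reads and 1009 LC3B reads, a fold of 159. CCNY, a cyclin, had 5 and 880 reads, a fold of 167, and SLC35A5, of the nucleotide sugar transporter family, had 4 and 776, a fold of 184. SENP2, a SUMO protease, had 1 IgG read and 387 LC3B reads, and WWC2, a regulator of Hippo signalling, had 2 and 435. With so few reads the intervals were wide, 65.4 to 14510 for SENP2 and 56.7 to 1706 for WWC2.

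The strongest differences in the other direction were smaller and better sampled. PARPBP, a PARP1-binding protein that restrains homologous recombination, stood at 99.4 and 81.5 CPM in the inputs, 171 with IgG and 20.2 with LC3B, a fold of 0.118 (interval 0.102 to 0.137). FTL, the ferritin light chain, was among the most abundant RNAs, with 7027 and 6460 CPM in the inputs, 13178 with IgG and 2250 with LC3B, a fold of 0.171 (0.168 to 0.173). For both genes the IgG level was above both inputs and the LC3B level below both.

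RSRP1, an arginine- and serine-rich protein, had a fold of 0.189, and COMMD10, of the COMMD family of trafficking factors, one of 0.206. ISCU, the scaffold on which iron-sulfur clusters are built, had a fold of 0.217, and NTAN1, an amidase that acts on N-terminal asparagine, one of 0.213. CHD1L, a chromatin remodeller, had a fold of 0.229. WDR43 (0.206) and DNTTIP2 (0.253) are nucleolar proteins, and TWISTNB (0.221) is a subunit of RNA polymerase I. MTATP6P1 (0.218), a nuclear copy of mitochondrial sequence, had 1933 and 1760 CPM in the inputs, 80.3 with IgG and 17.5 with LC3B. The share of mitochondrial reads was also lower with LC3B, and reads of the copy and of its mitochondrial source may have been divided between them.

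**Figure D3:**
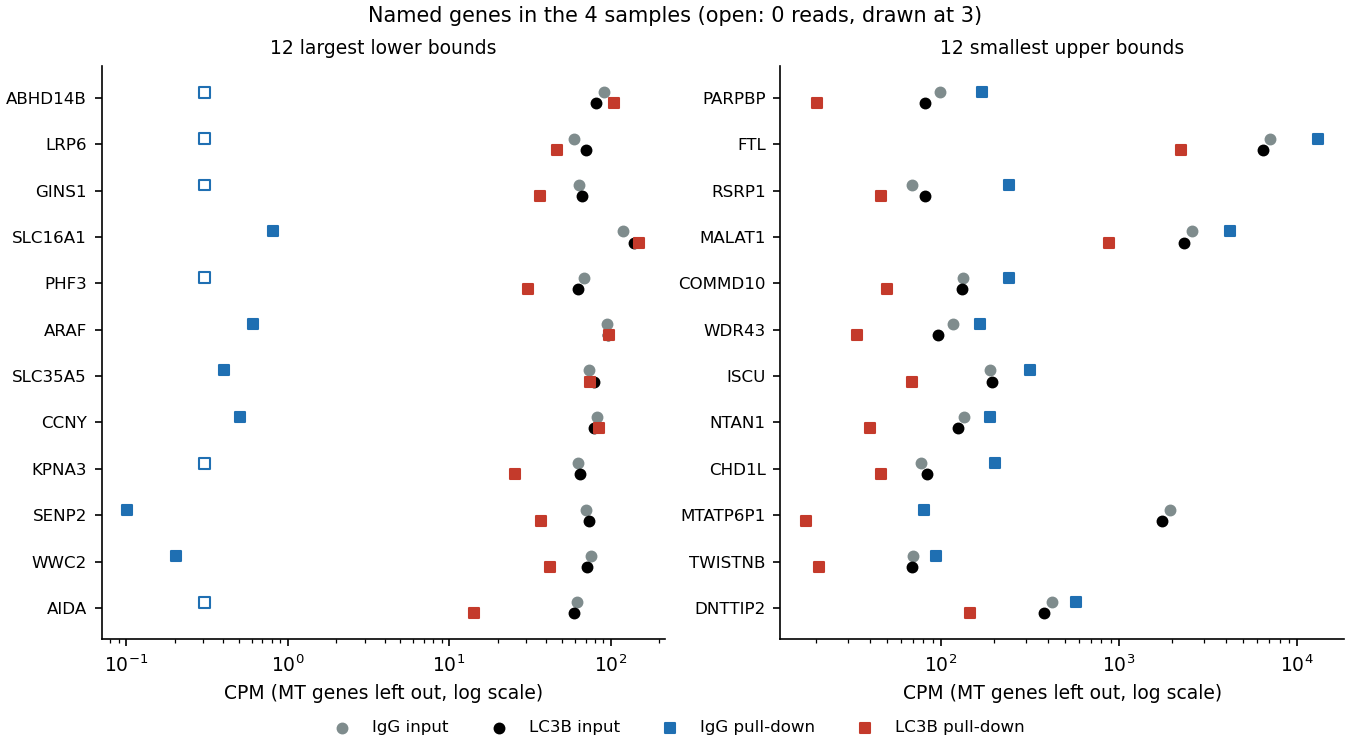
Levels in CPM on a log scale are drawn for the 12 genes with the largest lower bounds (left) and the 12 with the smallest upper bounds (right), with circles for inputs and squares for pull-downs. On the left the IgG squares lie at 3 reads or near it while most LC3B squares lie near the inputs; on the right the red squares lie under the inputs.

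Beyond FTL, the most abundant RNAs mostly differed by less than 2-fold. ACTB, the cytoplasmic beta-actin, stood at 13116 and 11943 CPM in the inputs, 7136 with IgG and 12648 with LC3B, a fold of 1.77 (1.76 to 1.79). GAPDH, of glycolysis, had a fold of 1.30, ANXA2, a membrane-binding annexin, one of 1.11, and CLU, the chaperone clusterin, one of 1.23. TUBA1B, an alpha-tubulin, had a fold of 1.62, TMSB4X, a thymosin that binds actin monomers, one of 0.782, and COX6A1, a cytochrome c oxidase subunit, one of 0.862. PPIA, cyclophilin A, was called: 3781 and 3710 CPM in the inputs, 1649 with IgG and 4832 with LC3B, a fold of 2.93 (2.88 to 2.98). FTH1, the ferritin heavy chain, was called lower at 0.302 (0.298 to 0.306).

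Gene lists are given by their counts of called genes and their median log2 ratio, to be read against 11.1% higher, 6.85% lower and a median of -0.03 over all abundant genes. The lists overlap in part.

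mRNAs of cytosolic ribosomal proteins leaned to LC3B. All 79 listed genes were abundant, 17 (21.5%) were called higher and 0 lower, the median was 0.65 and 73 had a ratio above 0. The same genes had a median of -0.05 between the inputs. RPS3 stood at 592 and 607 CPM in the inputs, 608 with IgG and 1424 with LC3B, a fold of 2.34 (2.27 to 2.42). RPS25 stood at 336 and 321 CPM in the inputs, 144 with IgG and 471 with LC3B, a fold of 3.28 (3.09 to 3.48). In RPS3 the IgG level lay at that of the inputs and LC3B above them; in RPS25 IgG lay below the inputs and LC3B above. RPL31 had a fold of 2.40 and RPS27A one of 2.15, and after dividing by the inputs the interval of RPS27A reached 1.97, which ends its call. The abundant acidic stalk proteins were not called: RPLP0 had a fold of 1.11 and RPLP1 one of 1.39. The list ran from RPL7 at 0.554 to RPL36A at 3.84. Ribosomal protein genes have many near-identical pseudogenes, and the treatment of such reads is unstated.

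Translation of these mRNAs is known to be tied to a 5′ terminal oligopyrimidine (TOP) tract, a C followed by pyrimidines at the start of the transcript. The bases around the annotated start are shown for the 5 most abundant called ribosomal protein genes with a RefSeq start. They are also shown for 3 mitochondrial ribosomal protein genes that went the other way. The latter were not the 3 most abundant called genes of their list, so these windows serve as examples only. Each window holds 15 bases before and 15 after the start on the coding strand, from RefSeq (GRCh38.p14), with the tract in capitals.
RPS3 (chr11:75399503-75399532, plus strand): gcccgcgagccaCTTCCTTTCCTTTCagcg
RPS25 (chr11:119018329-119018358, minus strand): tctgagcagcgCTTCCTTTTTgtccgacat
RPL31 (chr2:101002274-101002303, plus strand): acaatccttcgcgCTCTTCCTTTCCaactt
RPL18 (chr19:48619164-48619193, minus strand): accccagcccgttCTCTCTTTCCggacctg
RPS27A (chr2:55231888-55231917, plus strand): taaggagtgacacacaagacccagactctt
MRPL19 (chr2:75646768-75646797, plus strand): tgattactgggagctgtagtcttgacgtga
MRPL32 (chr7:42932361-42932390, plus strand): accggggcggtCTTCCagcagggaaaatgg
MRPL42 (chr12:93467499-93467528, plus strand): tttcgtgggaccaggattgaaacaagatgg
RPS3, RPS25, RPL31 and RPL18 have tracts of 10 to 14 bases, MRPL32 has the shortest tract counted, 5 bases, and RPS27A, MRPL19 and MRPL42 have none that begins within 4 bases of the start.

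The tract was then searched in all starts, as a C and only C or T after it, 5 bases or more in all, beginning within 4 bases of the RefSeq start and read on the coding strand alone. A RefSeq start was matched for 2946 of the 3592 abundant genes, and 517 of these (17.5%) had the tract, against 15.2% of all 27305 starts in the table. It was present in 49 of 63 matched ribosomal protein genes (77.8%). Outside that family, 71 of 468 genes with the tract (15.2%) were called higher and 17 (3.63%) lower, with a median of 0.15. Of the 2415 such genes without it, 232 (9.61%) were higher and 190 (7.87%) lower, with a median of -0.09. A match says only that these letters stand at the annotated start, which may not be the start used in U2OS. The search was added after the ribosomal protein values were seen.

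mRNAs of mitochondrial ribosomal proteins leaned the other way. Of 64 abundant members 0 were called higher and 10 (15.6%) lower, the median was -0.52 and 51 had a ratio below 0. In TPM 2 were higher and 7 lower. MRPL19 stood at 271 CPM in both inputs, 255 with IgG and 70.9 with LC3B, a fold of 0.278 (0.256 to 0.302). MRPL32 stood at 243 and 244 CPM in the inputs, 327 with IgG and 97.5 with LC3B, a fold of 0.298. Both were well under their inputs with LC3B. MRPL13 (0.465) and MRPL42 (0.455) were called too, but each lost its call under 2 or more other settings, MRPL42 with a fold of 0.552 in TPM. MRPL14 (0.704) and MRPL51 (1.12) were not called.

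Among nuclear-encoded genes of oxidative phosphorylation the share called lower was near that of all abundant genes. Of 72 abundant members 2 (2.78%) were higher and 6 (8.33%) lower, with a median of -0.17, and in TPM 3 were higher and 4 lower. SDHD, a membrane anchor of succinate dehydrogenase, stood at 565 and 523 CPM in the inputs, 766 with IgG and 261 with LC3B, a fold of 0.341. ATP5F1C, the gamma subunit of ATP synthase, had a fold of 0.350, and NDUFV2, a complex I subunit, one of 0.385. The 2 genes called higher, ATP5MC3 (2.60) and ATP5MC2 (2.34), both encode the same c subunit of ATP synthase, and their mature protein sequences are identical. Of 32 proteasome genes 0 were higher and 2 lower, PSMC1 (0.461) and PSMD2 (0.475), with a median of -0.39; each lost its call under at least 1 other setting.

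mRNAs of splicing factors of the SR and hnRNP families leaned to LC3B. Of 36 abundant members 7 (19.4%) were higher and 0 lower, with a median of 0.65. In TPM 10 were higher and 1 lower. HNRNPA2B1 stood at 2462 and 2391 CPM in the inputs, 822 with IgG and 2125 with LC3B, a fold of 2.59 (2.52 to 2.65). HNRNPH1 had a fold of 4.70, HNRNPAB one of 2.70 and SRSF2, which binds exonic enhancers, one of 2.39. In HNRNPA2B1 both pull-downs lay under the inputs, IgG further than LC3B. HNRNPK (1.72) and HNRNPC (1.58) were not called. RNA helicases were mixed, with 4 of 20 higher and 1 lower: DDX3X, a helicase of translation initiation, had a fold of 4.69, DDX21, of the nucleolus, one of 2.55, and DDX5 one of 2.29.

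Extracellular matrix genes held the largest share of calls among the lists with more than 10 members. Of 18 abundant members 6 (33.3%) were higher and 0 lower, with a median of 0.66. SERPINH1, the collagen chaperone, stood at 228 and 241 CPM in the inputs, 119 with IgG and 392 with LC3B, a fold of 3.29 (3.08 to 3.52). LOXL2, which cross-links collagen, had a fold of 2.38, and CCN2, a matricellular growth factor, one of 2.13, whose call ended after dividing by the inputs (1.98). PLOD2, a collagen lysyl hydroxylase, had a fold of 3.61 in counts and 2.27 in TPM, with an interval of 1.95 to 2.66 that ends its call. SPARC, a collagen-binding glycoprotein, had a fold of 1.99 and was not called in counts, but it was in TPM at 2.11. LGALS1, a galectin, had a fold of 0.812.

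**Figure D4:**
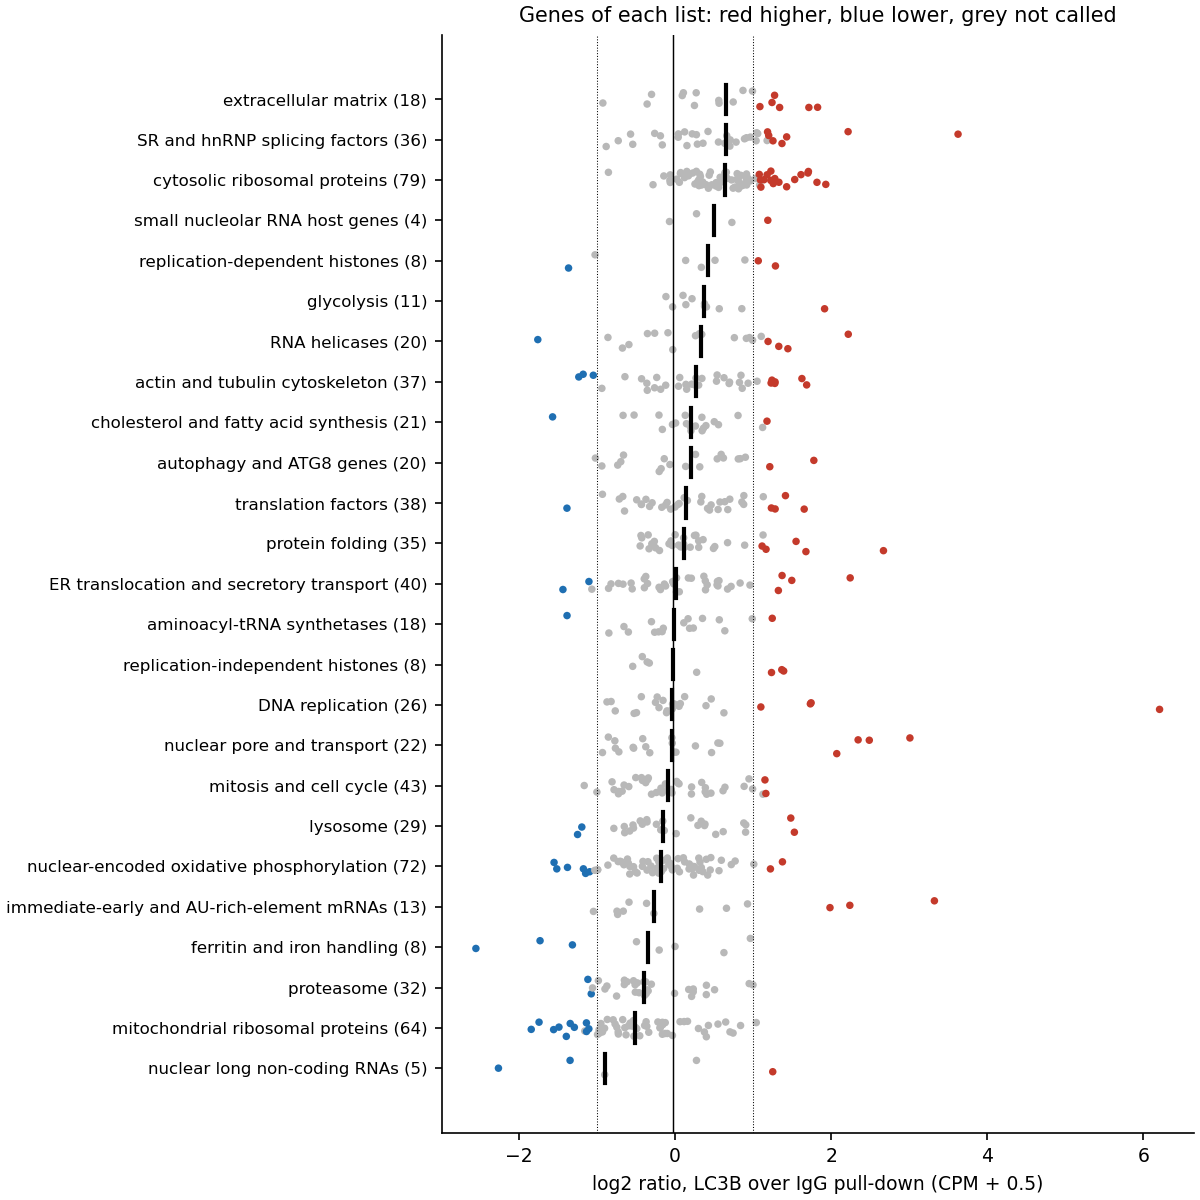
Each row is a gene list with its number of abundant members, and each point is a gene at its log2 ratio of LC3B over IgG (red called higher, blue called lower, grey not called). Black bars are list medians, the solid line the median of all abundant genes and the dotted lines 2-fold differences; medians run from -0.90 for 5 nuclear lncRNAs to 0.66 for 18 extracellular matrix genes.

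Genes of autophagy, the pathway LC3B is best known for, showed no common direction. Of 20 abundant members 2 were higher and 0 lower, with a median of 0.20. With a limit of 200 input reads 6 of 31 members were higher and 1 lower, with a median of 0.14. At that limit 17.2% of all genes were higher and 6.72% lower. With a limit of 1000 input reads 0 of 13 members were called, and with 2000 reads 0 of 6, where the median turned to -0.71. MAP1LC3B, which encodes LC3B itself, stood at 269 and 254 CPM in the inputs, 282 with IgG and 170 with LC3B, a fold of 0.601 (0.566 to 0.638). SQSTM1, the cargo receptor p62, stood at 360 and 363 CPM in the inputs, 243 with IgG and 434 with LC3B, a fold of 1.79. Of 2 further receptors, CALCOCO2 was called higher at 3.50 (2.97 to 4.13), and TAX1BP1 was not called at 0.522. GABARAPL1, an ATG8 paralogue of LC3B, had a fold of 2.33 and lost its call after dividing by the inputs, where its interval began at 1.96. VMP1, a membrane protein of autophagosome formation, had a fold of 0.618.

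Lysosomal genes were split, with 2 of 29 higher and 2 lower and a median of -0.16. Within the proton pump of the organelle, ATP6V0D1 had a fold of 2.91, while ATP6V1G1 (0.420) and ATP6V1B2 (0.436) were called lower. PPT1, a thioesterase, had a fold of 0.581 and CD63, a tetraspanin, one of 1.44.

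Of 8 abundant genes of iron handling 0 were higher and 3 lower. Besides both ferritin chains these included SLC40A1, the iron exporter ferroportin, at 66.0 and 66.6 CPM in the inputs, 85.3 with IgG and 34.0 with LC3B, a fold of 0.399 (0.351 to 0.452). TFRC, the transferrin receptor, had a fold with an interval of 0.933 to 1.07, and NCOA4, the receptor that delivers ferritin to autophagosomes, one of 0.869.

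Long non-coding RNAs as a class leaned to LC3B, while the best-known nuclear ones did not. Of 54 abundant lncRNAs 11 (20.4%) were higher and 2 (3.70%) lower, with a median of 0.47. The 2 lower ones were MALAT1, of nuclear speckles, and NEAT1, the scaffold of paraspeckles. MALAT1 stood at 2573 and 2319 CPM in the inputs, 4233 with IgG and 883 with LC3B, a fold of 0.209 (0.204 to 0.213). NEAT1 stood at 95.4 and 105 CPM in the inputs, 118 with IgG and 46.1 with LC3B, a fold of 0.392 (0.351 to 0.436). For both, IgG lay above the inputs and LC3B below. NORAD (1.21) and OIP5-AS1 (0.535) were not called, and TUG1, called at 2.42 in counts, had a fold of 1.47 in TPM and no call there. SNHG29, a small nucleolar RNA host gene, had a fold of 2.29 and lost its call in TPM and after dividing by the inputs. Without a stated strand setting, reads of a lncRNA and of an overlapping gene cannot be told apart: 20 of the 54 overlapped another abundant gene, 19 of them one on the opposite strand. VIM-AS1 had a fold of 3.52 beside 2.43 for VIM, and AL662797.2 one of 3.64 beside 3.22 for TUBB. The third lncRNA called higher with an overlap, LINC00662, had a fold of 2.39 beside 1.03 for AC006504.5. In other pairs the folds lay on opposite sides of equality, with TTC28-AS1 at 1.83 beside PITPNB at 0.712 and TPT1-AS1 at 1.94 beside TPT1 at 0.816. Of the 11 called higher, 8 had no such overlap.

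Immediate-early genes and carriers of AU-rich elements, the kind of element described for LC3 binding, included 13 abundant members, with 3 higher, 0 lower and a median of -0.27. JUND, a subunit of AP-1, stood at 104 and 93.8 CPM in the inputs, 12.9 with IgG and 134 with LC3B, a fold of 10.4 (8.63 to 12.5). ZFP36L2, which binds AU-rich elements, had a fold of 4.88, and MCL1, which protects cells from apoptosis, one of 4.01. PLAUR, the urokinase receptor, had a fold of 0.597 and ID3, an inhibitor of helix-loop-helix factors, one of 0.777. For a limit of 200 input reads the median of the list turned to 0.16, and for 1000 reads to 0.28.

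Listed nuclear transport genes included a few large differences around a median of -0.04: 4 of 22 were higher and 0 lower. In TPM 4 were higher and 1 lower. The list is not complete: the importin alpha KPNA3, given above with a bound of 83.3-fold, is not in it. NUP88, of the cytoplasmic face of the pore, stood at 165 and 142 CPM in the inputs, 11.4 with IgG and 95.3 with LC3B, a fold of 8.36 (6.87 to 10.3). NUP50, of its nuclear basket, had a fold of 5.74, NDC1, a membrane anchor of the pore, one of 5.37 and IPO5, an importin, one of 4.37. RAN, the GTPase that drives transport, had a fold of 0.751 and KPNA2, an importin alpha, one of 0.976.

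DNA replication genes had the same shape, with 4 of 26 higher, 0 lower and a median of -0.03. NASP, a histone chaperone, had a fold of 3.33 (3.17 to 3.50). The clamp loader subunits RFC1 (3.42) and RFC4 (2.15) each lost the call in an alternative, RFC1 with a fold of 1.52 in TPM. RRM2, of ribonucleotide reductase, had a fold of 1.55 and TYMS, thymidylate synthase, one of 0.854. Of 43 mitosis genes 2 were higher and 0 lower, with a median of -0.10: AURKA, a mitotic kinase (2.23, with no call after dividing by the inputs), and SMC2, a condensin subunit (2.26 in counts but 0.994 in TPM). In TPM 1 of the 43 mitosis genes was higher and 2 were lower. UBE2S, which extends ubiquitin chains for the anaphase-promoting complex, had a fold of 0.771.

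Among histones, 2 of 8 abundant replication-dependent genes were higher and 1 lower: H2BC12 had a fold of 2.45, H1-2 one of 2.10 (no call after dividing by the inputs) and H4C8 one of 0.387. Of 8 replication-independent ones 3 were higher and 0 lower: H2AX (2.64), H1-10 (2.36) and H3-3A (2.59), the last 2 each with no call in 1 alternative. H3-3B, which encodes the same protein as H3-3A, had a fold of 0.687.

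Protein folding genes had 5 of 35 higher, 0 lower and a median of 0.11. CALR, calreticulin, stood at 421 and 470 CPM in the inputs, 178 with IgG and 570 with LC3B, a fold of 3.20 (3.04 to 3.38). FKBP4 (2.17) and HSPH1 (2.25), both partners of larger chaperone machines, were called with PPIA, and HSPA1A, an inducible heat shock protein whose reads may be divided with a near-identical copy, had a fold of 6.48. HSP90B1 (0.976) and PPIB (1.20) were not called.

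Cytoskeletal genes were divided within pathways, with 6 of 37 higher and 3 lower. TUBB, a beta-tubulin, had a fold of 3.22, TAGLN2, an actin-binding protein, one of 2.37 and VIM, vimentin, one of 2.43. ARPC2, of the Arp2/3 complex, had a fold of 0.425, and PFN1, profilin, one of 0.484, which lost its call under 4 other settings. In the secretory pathway 4 of 40 were higher, among them SEC31A (4.86), of the outer coat of COPII vesicles, and TMED9 (2.51), and 2 were lower, TMED2 (0.370) and STT3A (0.465, with no call under 3 other settings). TMED9 and TMED2, called in opposite directions, both belong to the p24 family of cargo receptors.

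Translation factors included 4 higher and 1 lower of 38. EIF5A stood at 3.16, EIF1 at 2.67 and EIF4G2 at 2.44, while EIF2S2, the beta subunit of the factor that brings the initiator tRNA, stood at 0.383. The elongation factor EEF1A1 (1.81) was not called. Of 18 aminoacyl-tRNA synthetases 1 was higher, EPRS1 (2.39, with no call after dividing by the inputs), and 1 lower, FARSB (0.383). Of 21 lipid synthesis genes 1 was higher, FADS2 (2.27 in counts, 1.49 and no call in TPM), and 1 lower, INSIG1 (0.336), which retains the sterol sensor complex in the endoplasmic reticulum. In glycolysis 1 of 11 was higher, HK1 (3.83), and 0 were lower.

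Calls of higher were more frequent among genes with longer transcripts. Transcript length was taken relative to the median abundant gene, from the ratio of counts to TPM in the inputs. It is a length implied by the deposited values, not an annotated one, and for some genes it differed between samples. SMC2 had a fold of 2.26 in counts and 0.994 in TPM, while SNHG29 had 2.29 and 2.14. Genes were ordered by the length from the inputs and split into 5 groups of like size. In the group with the shortest transcripts, up to 0.574 of the median length, 6.40% were called higher and 6.12% lower. In the group with the longest, from 1.57 times the median length, 20.4% were called higher and 5.01% lower, and the SD of the log2 ratio was 1.24 against 0.74 in the shortest. The rank correlation of length with the log2 ratio across genes was 0.12, and 0.08 between the inputs. Genes are not independent replicates, and all points come from the same 2 pull-down libraries. The ribosomal protein and lncRNA values above were not corrected for length, and its part in them was not tested.

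**Figure D5:**
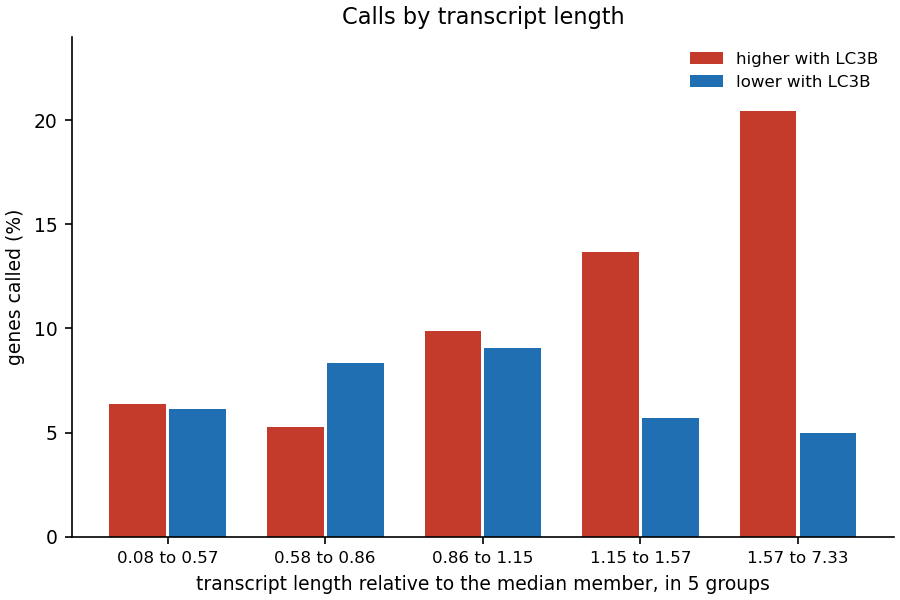
Bars give the percentage of abundant genes called higher (red) and lower (blue) with LC3B in each of 5 groups by relative transcript length, from the shortest on the left to the longest on the right. The red bars go from 6.40% to 20.4%, and the blue bars stay between 5.01% and 9.05%.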

How the data were processed

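Native nuclear RNA immunoprecipitation and sequencing was run on U2OS cells, with 1 library for each of 4 groups. The authors deposited raw read counts per gene and TPM (a length-scaled share of each library), per the file headers; commas that group digits were removed. Adapters and alignment involved cutadapt 2.8, STAR 2.7.1a and hg38, per the submitters' processing notes. Not given in the sources used here: the counter, the annotation release, strandedness, and what was done with duplicates or reads of several sites. Gene coordinates and symbols are those of the deposited table.

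CPM used totals without the 37 MT genes. Folds of the LC3B over the IgG pull-down carry exact conditional binomial (Clopper-Pearson) 95% intervals (scipy 1.17.1, Python 3.11.15). The code was tested on simulated Poisson counts with known folds. Such counts hold counting error alone, so the test cannot show how well the intervals hold in these amplified libraries. A count of 0 was replaced by 3 reads and its fold given as a bound. Log2 ratios used 0.5 CPM as pseudocount.

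Named genes were the 12 largest lower bounds, the 12 smallest upper bounds, the 10 most abundant, up to 4 called and 2 uncalled genes of each of 27 lists by input level, and fixed genes of interest; symbols shared by features were left out, and some genes that met the rule are not reported here. RPL7, RPL36A, HSPA1A, ATP5MC2, ATP5MC3, and the lncRNA pairs were named after their values were seen. The genes and lists were chosen with earlier results of these data known. Alternatives covered totals with MT genes or without the 10 most abundant genes, scaling by median of ratios or by trimmed mean (TMM), both in purpose-written code, the deposited TPM, other read limits, bounds and pseudocounts, thinning to equal totals, division by the input ratio, and other definitions of the start tract.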

Additional observations from a re-analysis of the deposited data

How the results depend on the processing

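The number of reads required in the inputs and the bounds of the call set the counts. With 200 reads (6432 genes) 1105 genes were higher and 432 lower, and the SD of the log2 ratio was 1.45. With 1000 reads (1888 genes) the values were 144, 134 and 0.82, and with 2000 reads (801 genes) 52, 51 and 0.72. As shares, the higher genes went from 17.2% over 7.63% to 6.49% and the lower genes from 6.72% over 7.10% to 6.37%. Bounds of 4 and 0.25 gave 93 higher and 8 lower, and bounds of 1.5 and its inverse 738 and 677. Under the other scalings, TPM, thinning and division by the inputs, 362 to 424 were higher and 210 to 250 lower, and point folds without an interval gave 479 and 327. The largest shift of all ratios by another scaling of the counts was 0.03 on the log2 scale. Of 954 values of 159 named genes under 6 alternatives 916 kept their call, 37 lost it, 1 gained it and 0 reversed. Of 258 list medians 24 moved by more than the SD between the inputs. The difference of medians between genes with and without the start tract was 0.30, and 0.25 to 0.38 under 4 other definitions that were chosen after seeing the data. No replicate could be left out and no paired analysis was possible because each group holds 1 sample. The folds of the 55 genes with at most 100 IgG reads are limited by those few reads. The IgG pull-down held 9824400 non-mitochondrial reads against 8404123 and 8542486 in the inputs. Yet 14440 genes of the whole table had a read in it, against 22947 and 23082 in the inputs. Read totals do not give the number of distinct molecules sampled. Why these genes had few reads there was not tested.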
